A study of Homo sapiens with 16 samples.

Results

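The heat shock proteins and DNAJ co-chaperones were taken from the count tables by their symbols: every gene whose symbol starts with HSPA, HSPB, HSPC, HSPD, HSPE, HSPH or HSP90, or with DNAJA, DNAJB or DNAJC and a digit, except HSPA5. The rule found 77 of 20314 genes in the U251 tables and 79 of 20626 genes in the U343 tables. DNAJC19 and DNAJC25 were found in the U343 tables alone. By symbol, the 79 members comprised 11 HSPA genes, HSPH1, HSPD1 with HSPE1, 6 HSP90 genes, 8 HSPB genes, 4 DNAJA, 13 DNAJB and 29 DNAJC genes, and 5 others. The rule goes by symbol, and it also drew in genes that are not heat shock chaperones: the 5 others were HSPBAP1 and HSPBP1, which bind heat shock proteins, and HSPC072, HSPC157 and HSPC159, which RefSeq now lists as LINC00652, LINC00339 and LGALSL. HSPB11, now IFT25, and the pseudogenes HSP90AB2P, HSP90AB4P, HSP90B3P, HSPA7 and DNAJB3 were drawn in as well. The rule found none of HSPA1A, HSPA1B and HSPA1L in the count tables used here, so these genes were not analysed.

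HSP70 proteins (the HSPA genes) bind exposed stretches of unfolded proteins and release them in a cycle driven by ATP. J proteins (the DNAJ genes) bring substrates to HSP70 and stimulate its ATPase, nucleotide exchange factors such as HSPH1 reset it, HSP90 proteins act later on partly folded clients such as kinases and steroid receptors, the chaperonin HSPD1 with its lid HSPE1 folds proteins in mitochondria, and the small heat shock proteins (HSPB) hold unfolded proteins without ATP. In heat and proteotoxic stress, heat shock factor HSF1 induces several of these genes through heat shock elements in their promoters. Tumour cells, gliomas included, commonly depend on these chaperones for growth.

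The cells were U251 and U343, established human glioblastoma cell lines, which received either the mimic of miR-137 or a control mimic (25 nM, harvest after 48 h). Each line was measured by RNASeq, which counts reads of total RNA depleted of ribosomal RNA, and by RIPSeq, which counts RNA precipitated with antibodies to the poly(A) binding protein PABP, so that there were 4 experiments with 2 control and 2 miR-137 libraries each, 16 in all. A RIPSeq level therefore changes with the amount of a transcript as well as with its binding to PABP. U251 and U343 libraries were made by different cDNA synthesis procedures. The labels do not say that libraries 1 and 2 of a group came from separate cultures, so p-values measure only the spread between these libraries.

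The mature sequence of miR-137 (3p arm, RefSeq, GRCh38.p14, chr1:98046091-98046113, minus strand) is shown because it is the sequence the mimic stands for, with its seed, bases 2 to 8, in capitals.
hsa-miR-137-3p: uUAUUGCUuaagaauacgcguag
Transcript sequences were not used here, so sites for this seed in the members were not counted.

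RefSeq promoters, from 250 bases before to 50 bases after the start site, matched 67 of the 79 members by symbol or synonym. They were searched on both strands for a heat shock element of 3 units of GAA in alternating orientation, that is GAA, any 2 bases, TTC, any 2 bases and GAA, or the reverse complement of these letters (TTC, any 2 bases, GAA, any 2 bases and TTC); elements may overlap. It was found in 7 of the 67 members (10.4%) and in 166 of all 27305 genes with a promoter (0.608%). Of the 7, HSP90AA1, HSP90AB1, HSPA6, HSPA8, HSPD1 and DNAJA1 were among the 12 textbook heat shock targets with a promoter here, and DNAJB6 was not. Windows of HSPD1, of HSP90AA1, of HSPA6 and of DNAJB6 are shown since these genes differ in how they responded; the capitals mark the elements (RefSeq, GRCh38.p14).
HSPD1, chr2:197500048-197500090, minus strand: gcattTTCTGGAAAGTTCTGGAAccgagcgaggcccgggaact
HSP90AA1, chr14:102087100-102087152, minus strand: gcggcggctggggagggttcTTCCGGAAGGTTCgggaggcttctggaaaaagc
HSPA6, chr1:161524446-161524498, plus strand: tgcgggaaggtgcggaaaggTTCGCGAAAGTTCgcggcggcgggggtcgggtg
DNAJB6, chr7:157336853-157336905, plus strand: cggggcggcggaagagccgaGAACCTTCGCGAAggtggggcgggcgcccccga
A match is a description of the letters in the window. The 7 genes did not share a direction: after miR-137 HSPD1 was called lower in 3 experiments, HSPA8 and DNAJB6 were called lower in U251 RNASeq, HSP90AA1 higher there and lower in U343 RIPSeq, DNAJA1 and HSPA6 were called higher in U343 RIPSeq, and HSP90AB1 was called in no experiment.

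Depth was 10156675 to 18224061 counted reads per library in U251 RNASeq, 22359794 to 30731476 in U251 RIPSeq and 37736206 to 45134766 in the U343 libraries. Members took 7757 to 11416 CPM (reads scaled to library size) of a library before TMM scaling, and 3 of them, HSPA8, HSP90AB1 and HSPA9, held 35.9% to 49.3% of these. The astroglial markers GFAP, VIM, NES, S100B, CD44 and FABP7 summed to 5725 CPM or more in every library, each of them above 1 CPM in all control groups, while the microglial markers summed to at most 4.63 CPM. In U251 RNASeq the astroglial sum itself was lower with miR-137, at 5725 and 5984 against 12109 and 12517 CPM, and all 6 markers passed the test. In U343 RNASeq the astroglial sums overlapped, at 11040.5 and 11846.7 CPM in the controls and 11723 and 13443 CPM with miR-137. There NES and CD44 were called higher and no astroglial marker was called lower. Of the 5 epithelial markers, 4 were under 1 CPM in every U251 group, and CLDN4, a claudin, was at a mean of 21.3 CPM in the U251 RNASeq controls and 141 CPM with miR-137, called higher; in U343 the epithelial sum of 423 to 1489 CPM was mostly KRT5, a keratin. The neuronal markers summed to 5.89 and 6.02 CPM in the U343 RNASeq controls and to 32.8 and 35.6 CPM with miR-137. In U251 RNASeq they summed to 50.2 and 51.3 CPM in the controls and 37.9 and 44.7 CPM with miR-137, and SYT1 was called lower. In U251 RIPSeq they summed to 24.3 and 34.3 CPM in the controls and 73.0 and 75.9 CPM with miR-137, and SNAP25 and GAP43 were called higher. The endothelial markers summed to 58.0 and 66.0 CPM in the U343 RIPSeq controls and to 36.9 and 38.3 CPM with miR-137, where TEK and CDH5 were called lower and VWF higher, and to at most 66.5 CPM in any library. The part of these markers in the values of the members was not tested. Libraries stood apart from their replicates in U251 RIPSeq control, where 16 of 60 members differed more than 2-fold between replicates 1 and 2, and in U343 RNASeq miR137, where DNAJA1 did. The median absolute log2 difference between replicates was 0.45 over the members and 0.61 over all genes in U251 RIPSeq control. In U343 RNASeq miR137 it was 0.15 over the members and 0.20 over all genes.

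In U251 RNASeq, the chaperones moved in both directions after miR-137: DNAJC3, DNAJB6 and HSPD1 had the largest falls, and, among members whose higher group averaged 50 reads or more, DNAJC12, DNAJB2 and DNAJC16 the largest rises. The test was edgeR's quasi-likelihood F test with Benjamini-Hochberg adjustment over all genes, and a gene is called lower or higher at an adjusted p under 0.05. Of 61 members with enough reads to be tested, 16 were called lower, where 29% of all genes tested were, and 15 were called higher, against 28.7% of all genes. These shares lie near the background, and the median log2 fold change was 0.05 over the members and 0.02 over all genes. All 31 called members moved the same way in every one of the 4 pairings of control with miR-137 libraries. These members were called on the same libraries, which favours such separation, so it is no further evidence. With upper-quartile scaling, which moved the median of all genes to 0.16, 14 were called lower and 24 higher, and a joint fit of the line's 8 libraries, which share 1 estimate of the spread, called 5 lower and 6 higher. The other 16 members of the tables had too few reads to be tested. In bulk RNA, fewer cells of a type and less RNA per cell cannot be told apart.

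In U343 RNASeq, DNAJC9, HSPA14 and HSPE1 fell most and DNAJC6, DNAJB2 and DNAJC16 rose most among the called members with at least 50 reads. Of 73 members tested, 9 were called lower (11.7% of all genes) and 5 higher (8.31% of all genes), and the medians were -0.08 for the members and 0.02 for all genes. The calls rested on both control libraries: without control replicate 1, or without control replicate 2, no member was called by edgeR in either direction, and without miR137 replicate 1 or replicate 2 there were 19 and 18 lower and 13 and 11 higher. At an unadjusted p under 0.05 there were 21 lower and 11 higher, DESeq2 called 15 and 7, and the joint fit of the line's 8 libraries called 21 and 10.

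In U343 RIPSeq, 25 of 71 members were called lower, against 27.8% of all genes, and 15 were called higher, against 28.5%. The falls included DNAJC9, HSP90B1, HSPE1 and HSPD1, and the rises DNAJC15, HSPA2 and DNAJC6. The median was -0.16 for the members and 0.00 for all genes. By family, 14 of 28 DNAJC genes and 3 of 5 HSP90 genes were called lower, while 4 of 6 HSPB genes were called higher. These HSP90 genes included the pseudogene HSP90B3P, and these HSPB genes included HSPB3 and HSPB9, which were called on few reads. In U251 RIPSeq, edgeR called none of 62 members lower (0.263% of all genes) and none higher (0.944%). At an unadjusted p under 0.05 there were 1 lower, HSPB6, and 7 higher, among them DNAJC12, HSP90AA1 and HSPB8, and DESeq2 called 0 lower and 1 higher, DNAJC12, and the joint fit 0 lower and 6 higher. The 2 U251 RIPSeq control libraries decided this count: leaving out control replicate 1 gave 18 lower and 27 higher, and leaving out control replicate 2 gave 15 and 34.

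**Figure D1:**
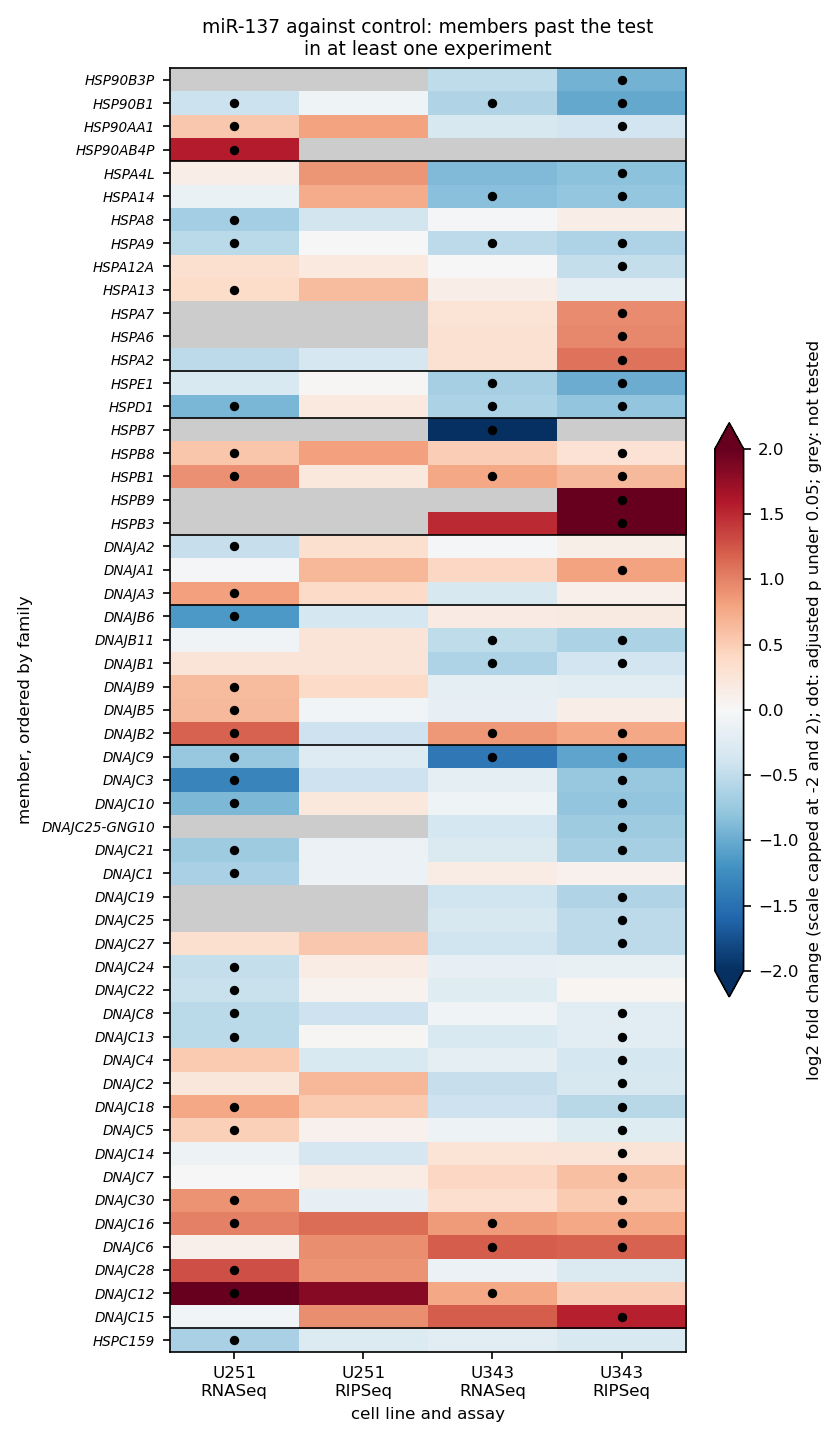
log2 fold changes of miR-137 against control for the 55 members called in at least 1 experiment, by family, with cell line and assay in columns. Blue is lower and red higher, a dot marks an adjusted p under 0.05 and grey a member not tested; HSPD1, HSPA9, HSP90B1 and DNAJC9 are blue with a dot, and HSPB1, DNAJB2 and DNAJC16 red with a dot, in all columns but U251 RIPSeq, which has no dots.

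Among the HSP70 proteins, HSPA8, the constitutive cytosolic form, fell in U251 RNASeq. There its level was 2910.2 and 3441 CPM in the control libraries and 1919 and 2048 CPM in the miR-137 libraries (log2 fold change -0.68, SE 0.16, adjusted p = 0.00308). The groups did not overlap. In U343 RNASeq it was 2529 and 2264 CPM in the control libraries and 2239 and 2499 CPM in the miR-137 libraries, with overlapping groups (log2 fold change -0.02, SE 0.10, adjusted p = 0.918), and in U343 RIPSeq 3081 and 3161 CPM in the control libraries and 3718 and 3126 CPM in the miR-137 libraries, again overlapping (log2 fold change 0.13, SE 0.15, adjusted p = 0.498). The U251 RIPSeq libraries held 2007 and 2141 CPM in the controls and 1576 and 1642 CPM with miR-137, a difference that did not pass the test (adjusted p = 0.277). HSPA8 has 20 pseudogenes by symbol, which may share its reads. HSPH1, the HSP110 exchange factor for HSP70, was not called in any experiment. Its levels were 295 and 275 CPM in the control libraries and 314 and 274 CPM in the miR-137 libraries in U251 RNASeq, 287 and 254 CPM in the control libraries and 266 and 244 CPM in the miR-137 libraries in U343 RNASeq and 238 and 223 CPM in the control libraries and 236 and 242 CPM in the miR-137 libraries in U343 RIPSeq, with differences of 0.05, -0.09 and 0.05 on the log2 scale. In U251 RIPSeq the HSPH1 controls were far apart, at 139 and 281 CPM, below the miR-137 libraries at 385 and 382 CPM (adjusted p = 0.307).

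HSPA14, which forms the ribosome-associated complex with DNAJC2, fell in U343. Its levels were 45.4 and 44.9 CPM in the control libraries and 24.4 and 26.0 CPM in the miR-137 libraries in U343 RNASeq (log2 fold change -0.84, SE 0.09, adjusted p = 0.0116) and 36.1 and 32.7 against 20.9 and 19.6 CPM in U343 RIPSeq (log2 fold change -0.77, SE 0.10, adjusted p = 0.000377). In U251 RNASeq the groups overlapped, with 30.2 and 33.2 CPM in the control libraries and 26.1 and 31.6 CPM in the miR-137 libraries (adjusted p = 0.451). HSPA2, a testis-enriched HSP70, rose in U343 RIPSeq, from 44.3 and 45.4 CPM to 102 and 88.8 CPM (log2 fold change 1.09, SE 0.09, adjusted p = 5.82e-05). In U343 RNASeq its miR-137 libraries, at 60.1 and 105 CPM, lay on either side of the controls at 71.5 and 62.5 CPM. HSPA6, a strictly stress-induced HSP70, was named after its values were seen: it had 18.7 and 17.7 CPM in the control libraries and 38.2 and 32.8 CPM in the miR-137 libraries in U343 RIPSeq (log2 fold change 0.96, SE 0.11, adjusted p = 0.00019), and in U343 RNASeq its groups overlapped, with 21.6 and 19.2 against 19.0 and 31.3 CPM.

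Of the mitochondrial folding machinery, HSPA9 and HSPD1 were lower in both lines. HSPA9 (mortalin), the HSP70 of the mitochondrial matrix, went from 861 and 935 CPM in the U251 RNASeq controls to 612 and 623 CPM (log2 fold change -0.54, SE 0.14, adjusted p = 0.00497). The same gene went from 791 and 895 to 576 and 600.0 CPM in U343 RNASeq (log2 fold change -0.52, SE 0.10, adjusted p = 0.0321) and from 1197 and 1119.8 to 749 and 759 CPM in U343 RIPSeq (log2 fold change -0.62, SE 0.11, adjusted p = 0.00229). The groups were separate in all 3 experiments. In U251 RIPSeq the 2 controls, at 427 and 746 CPM, lay on either side of the miR-137 libraries at 591 and 584 CPM. HSPA9 has 2 pseudogenes by symbol and overlaps SNORD63 by 68 bases in the gene models, so its reads may be shared.

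HSPD1 (HSP60), the chaperonin, was at 353 and 418 CPM in the control libraries and 183 and 227 CPM in the miR-137 libraries in U251 RNASeq (log2 fold change -0.91, SE 0.15, adjusted p = 0.000181). Its levels in U343 RNASeq were 702 and 723 CPM in the control libraries and 444 and 479 CPM in the miR-137 libraries (log2 fold change -0.63, SE 0.09, adjusted p = 0.0171), and those in U343 RIPSeq were 621 and 574 CPM in the control libraries and 350.2 and 341 CPM in the miR-137 libraries (log2 fold change -0.79, SE 0.10, adjusted p = 0.000415). Every miR-137 library of these 3 experiments lay below both of its controls. The lid HSPE1 (HSP10) was called lower in U343, with 132 and 140.2 CPM in the control libraries and 87.5 and 84.7 CPM in the miR-137 libraries in RNASeq (log2 fold change -0.66, SE 0.09, adjusted p = 0.0174) and 112 and 99.9 against 53.5 and 52.7 CPM in RIPSeq (log2 fold change -0.996, SE 0.09, adjusted p = 6.77e-05). In U251 RNASeq the HSPE1 groups overlapped, with 50.9 and 64.4 CPM in the controls and 41.0 and 52.5 CPM with miR-137 (adjusted p = 0.116). The difference between the lines in the HSPE1 response did not pass the test either (log2 difference -0.36, SE 0.22, adjusted p = 0.264). In U251 RIPSeq, HSPD1 had 90.8 and 153 CPM in the control libraries and 141 and 136.6 CPM in the miR-137 libraries and HSPE1 40.7 and 35.1 CPM in the control libraries and 38.8 and 37.8 CPM in the miR-137 libraries. HSPD1 and HSPE1 share 278 bases in the authors' gene models, and pseudogenes of both are numerous (22 and 28 by symbol in RefSeq), so reads may be split among copies. The list of mitochondrial members held HSPA9, HSPD1, HSPE1, DNAJA3, DNAJC11, DNAJC15 and DNAJC19, the last not in the U251 tables. In U251 RNASeq 2 of 6 were called lower (29% of all genes) and 1, DNAJA3, higher (28.7%). In U343 RNASeq 3 of 7 were called lower (11.7%), and in U343 RIPSeq 4 of 7 were called lower (27.8%) and 1, DNAJC15, higher (28.5%). DNAJC30, a mitochondrial J protein that the list left out, was called higher in U251 RNASeq and U343 RIPSeq.

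**Figure D2:**
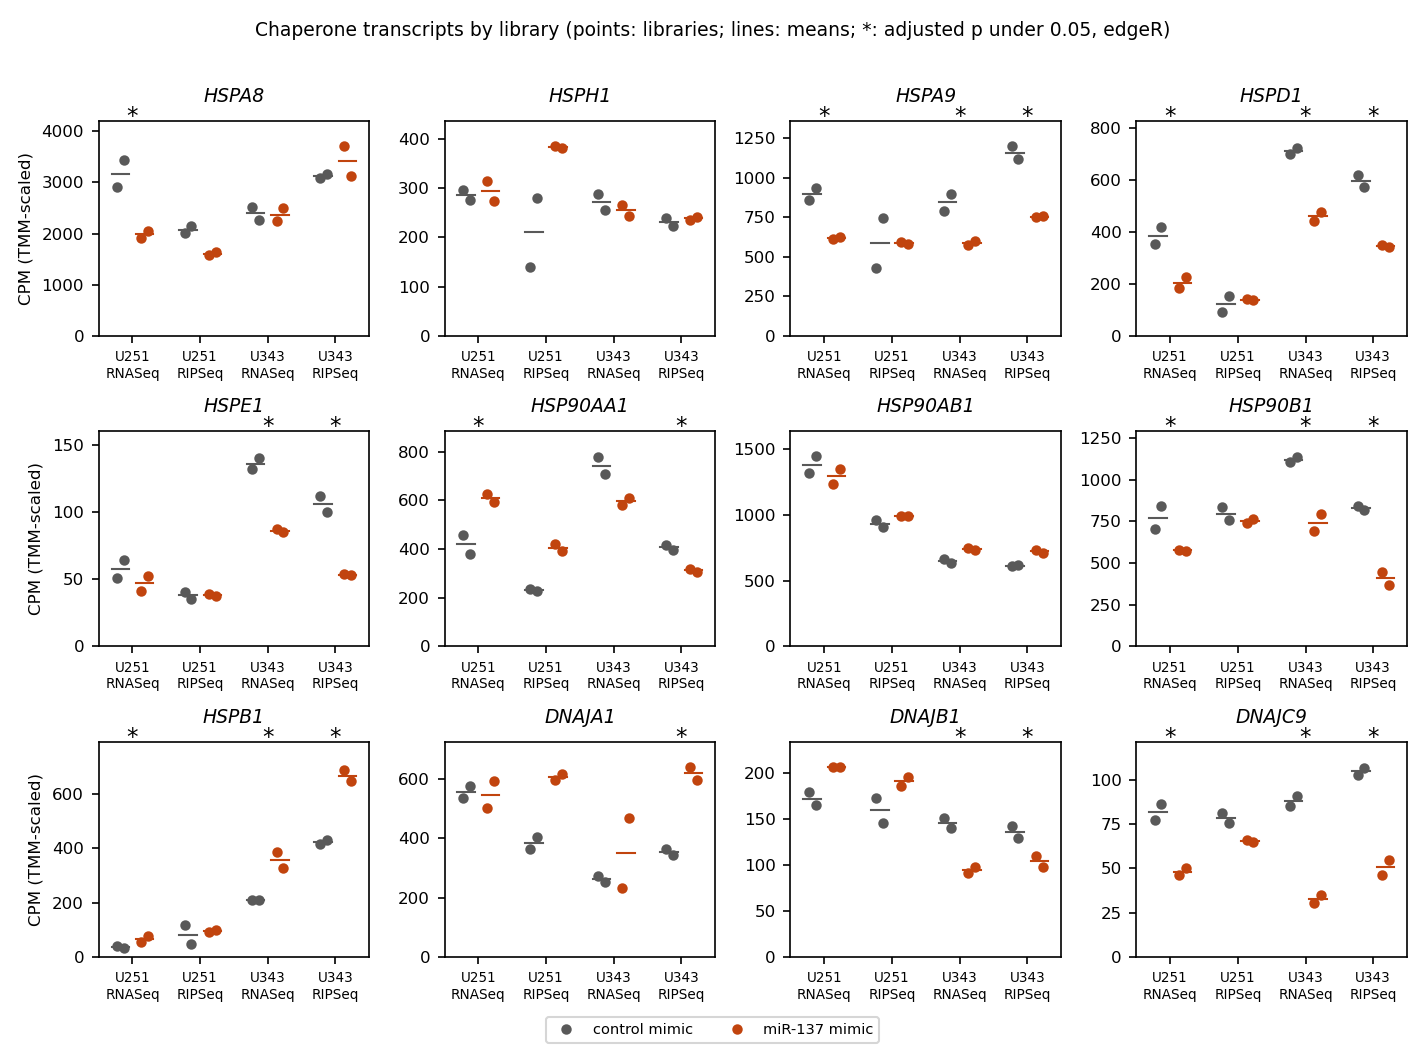
Levels of 12 chaperone transcripts in CPM, scaled within each experiment by TMM factors, on axes that start at 0. Points are libraries (grey control, orange miR-137), lines are means of 2 and asterisks mark an adjusted p under 0.05; HSPD1 and HSPA9 drop and HSPB1 climbs with miR-137 in U251 RNASeq and both U343 experiments, and HSP90AA1 goes up in U251 RNASeq but down in U343 RIPSeq.

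Of the cytosolic HSP90 genes, HSP90AA1 moved with HSPA9 and HSPD1 in U343 but against them in U251 RNASeq. HSP90AA1, the inducible isoform, rose in U251 RNASeq, where it had 459 and 381 CPM in the control libraries and 625 and 592 CPM in the miR-137 libraries (log2 fold change 0.54, SE 0.14, adjusted p = 0.00607). In U343 its miR-137 libraries were below both controls: 776 and 707 CPM in the control libraries and 579.7 and 611 CPM in the miR-137 libraries in RNASeq, short of the threshold (adjusted p = 0.0826), and 417 and 396 CPM in the control libraries and 319 and 304 CPM in the miR-137 libraries in RIPSeq (log2 fold change -0.38, SE 0.09, adjusted p = 0.00994). In U251 RIPSeq the levels were 236 and 227 CPM in the control libraries and 420.0 and 392 CPM in the miR-137 libraries, which did not pass the test (adjusted p = 0.141). The constitutive isoform HSP90AB1 was called in no experiment. It had 1318 and 1448 CPM in the control libraries and 1236 and 1352 CPM in the miR-137 libraries in U251 RNASeq (log2 fold change -0.10) and 964 and 906 CPM in the control libraries and 991 and 991 CPM in the miR-137 libraries in U251 RIPSeq (log2 fold change 0.08). In U343 it had 662 and 636 CPM in the control libraries and 751 and 732 CPM in the miR-137 libraries in RNASeq (adjusted p = 0.16) and 614 and 617 CPM in the control libraries and 737 and 712 CPM in the miR-137 libraries in RIPSeq (adjusted p = 0.0849). The pseudogene HSP90AB2P had 193 and 208 reads in the U251 RNASeq controls and 8446 and 8586 in those of U343. Reads of HSP90AB1 may therefore be shared with HSP90AB2P.

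Of the chaperones of the endoplasmic reticulum, HSP90B1 was called lower in both lines. HSP90B1 (GRP94), the HSP90 of that compartment, was at 704 and 842 CPM in the control libraries and 580.2 and 572 CPM in the miR-137 libraries in U251 RNASeq (log2 fold change -0.42, SE 0.15, adjusted p = 0.023). In U343 it went from 1106 and 1135 to 693 and 792 CPM in RNASeq (log2 fold change -0.59, SE 0.10, adjusted p = 0.0242) and from 842 and 816 to 447 and 369.6 CPM in RIPSeq (log2 fold change -1.02, SE 0.12, adjusted p = 0.00032). The groups did not overlap in these 3 experiments, and in U251 RIPSeq they did, with 834 and 758 against 738 and 767 CPM. DNAJC3 (P58IPK), a luminal J protein that is also an inhibitor of the kinase PERK, had the largest fall of all members in U251 RNASeq: 223 and 229.7 CPM in the control libraries and 89.9 and 90.4 CPM in the miR-137 libraries (log2 fold change -1.33, SE 0.13, adjusted p = 1.43e-06). In U343 RNASeq it had 163 and 154 CPM in the control libraries and 149 and 132 CPM in the miR-137 libraries and was not called (adjusted p = 0.308), whereas in U343 RIPSeq it went from 119 and 109 to 73.4 and 61.5 CPM (log2 fold change -0.76, SE 0.11, adjusted p = 0.000676). The U251 RIPSeq controls differed widely for DNAJC3, at 76.6 and 186 CPM. Of the 9 listed members of that compartment (HSP90B1, HSPA13, DNAJB9, DNAJB11, DNAJB12, DNAJB14, DNAJC1, DNAJC3 and DNAJC10), DNAJC3, DNAJC10, DNAJC1 and HSP90B1 were called lower and DNAJB9 and HSPA13 higher in U251 RNASeq, HSP90B1 and DNAJB11 lower in U343 RNASeq, and HSP90B1, DNAJC10, DNAJC3 and DNAJB11 lower in U343 RIPSeq. Among all genes 29% were called lower and 28.7% higher in U251 RNASeq, 11.7% lower in U343 RNASeq and 27.8% lower in U343 RIPSeq.

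The small heat shock protein HSPB1 (HSP27) rose in both lines. It had 38.6 and 30.7 CPM in the control libraries and 54.5 and 75.7 CPM in the miR-137 libraries in U251 RNASeq (log2 fold change 0.91, SE 0.17, adjusted p = 0.000477). In U343 it went from 211 and 208 to 386 and 329 CPM in RNASeq (log2 fold change 0.77, SE 0.12, adjusted p = 0.0199) and from 416 and 432 to 687 and 648 CPM in RIPSeq (log2 fold change 0.66, SE 0.10, adjusted p = 0.00109). All miR-137 libraries of these experiments were above their controls. In U251 RIPSeq the controls, at 118 and 45.6 CPM, lay on either side of the miR-137 libraries at 90.7 and 97.9 CPM. HSPB1 has 2 pseudogenes by symbol, so its reads may be shared with copies. HSPB8, which works with BAG3 in selective autophagy, was called higher in U251 RNASeq (0.55 on the log2 scale) and in U343 RIPSeq (0.29). Other calls rested on few reads. In U251 RNASeq DNAJC28 had 15 control reads and 26 with miR-137 in smaller libraries (ratio 2.48, exact 95% interval 1.27 to 5.04). HSPB7 had 24 reads in the U343 RNASeq controls together and 2 with miR-137, a ratio of 12.1 with an exact 95% interval of 3.00 to 105. In U343 RIPSeq HSPB3 had 3 control reads and 32 with miR-137 (ratio 11.7, interval 3.66 to 59.7), and HSPB9 had 9 and 39 (ratio 4.75, interval 2.26 to 11.2). These intervals cover counting error only.

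Of the J proteins that serve cytosolic HSP70, DNAJB1 (HSP40), a classical heat shock target, fell in U343. It had 151 and 141 CPM in the control libraries and 91.4 and 98.1 CPM in the miR-137 libraries in RNASeq (log2 fold change -0.62, SE 0.10, adjusted p = 0.0228) and 142 and 129 CPM in the control libraries and 110.2 and 97.8 CPM in the miR-137 libraries in RIPSeq (log2 fold change -0.38, SE 0.10, adjusted p = 0.0114). In U251 RNASeq the miR-137 libraries, at 207 and 207 CPM, were above the controls at 179 and 166 CPM, short of the threshold (adjusted p = 0.0865). The U251 RIPSeq levels were 173 and 146 CPM in the control libraries and 187 and 196 CPM in the miR-137 libraries (adjusted p = 0.582). DNAJA1, which carries a farnesyl group and acts with HSPA8, rose in U343 RIPSeq from 363 and 342 to 639.6 and 598 CPM (log2 fold change 0.81, SE 0.10, adjusted p = 0.000388). In U343 RNASeq it depended on the library: the miR-137 libraries had 233 and 467 CPM and the controls 273 and 251.1 CPM (adjusted p = 0.438). Its groups overlapped in U251 RNASeq, at 537 and 577 CPM in the control libraries and 501 and 594 CPM in the miR-137 libraries, and in U251 RIPSeq it had 363 and 405 CPM in the control libraries and 596 and 617 CPM in the miR-137 libraries (adjusted p = 0.174). DNAJA1 and DNAJB1 have 6 and 2 pseudogenes by symbol, so their reads may be shared with copies.

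DNAJB6, known to hold back aggregation of polyglutamine proteins, fell in U251 RNASeq, where it had 51.5 and 52.2 CPM in the control libraries and 19.7 and 27.0 CPM in the miR-137 libraries (log2 fold change -1.15, SE 0.16, adjusted p = 3.94e-05). It was not called in U343, with 132 and 126 CPM in the control libraries and 139 and 152 CPM in the miR-137 libraries in RNASeq and 133 and 130.0 CPM in the control libraries and 159 and 138 CPM in the miR-137 libraries in RIPSeq. DNAJB2 (HSJ1), a J protein abundant in neurons that targets clients for degradation, rose in both lines. Its levels were 16.7 and 16.9 CPM in the control libraries and 38.6 and 37.6 CPM in the miR-137 libraries in U251 RNASeq (log2 fold change 1.18, SE 0.14, adjusted p = 1.06e-05), 35.6 and 30.8 against 69.4 and 52.2 CPM in U343 RNASeq (log2 fold change 0.87, SE 0.18, adjusted p = 0.0367), and 28.2 and 33.4 against 51.9 and 53.6 CPM in U343 RIPSeq (adjusted p = 0.000482). No library with miR-137 overlapped the controls in these 3 experiments, while in U251 RIPSeq the DNAJB2 controls were 64.8 and 29.6 CPM and enclosed the miR-137 libraries at 34.9 and 35.8 CPM. DNAJB6 has 8 pseudogenes by symbol, so its reads may be shared with copies.

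The DNAJC genes, J proteins with specialised partners, held the largest fall and the largest rise of U251 RNASeq. DNAJC9, a histone co-chaperone, was at 77.3 and 86.2 CPM in the control libraries and 46.2 and 50.1 CPM in the miR-137 libraries in U251 RNASeq (log2 fold change -0.76, SE 0.13, adjusted p = 0.000251). In U343 it had 85.5 and 91.1 CPM in the control libraries and 30.3 and 34.9 CPM in the miR-137 libraries in RNASeq (log2 fold change -1.44, SE 0.11, adjusted p = 0.00724) and 103 and 107 CPM in the control libraries and 46.4 and 54.8 CPM in the miR-137 libraries in RIPSeq (log2 fold change -1.05, SE 0.10, adjusted p = 9.42e-05). The U251 RIPSeq libraries were in the same order, with 81.4 and 75.4 CPM in the control libraries and 66.1 and 64.9 CPM in the miR-137 libraries, but the difference did not pass the test (adjusted p = 0.592). DNAJC9 has 1 pseudogene by symbol, which may share its reads. DNAJC12, whose product assists the hydroxylases of aromatic amino acids, rose in U251 RNASeq from 2.94 and 4.03 to 12.0 and 17.6 CPM (log2 fold change 2.08, SE 0.24, adjusted p = 7.29e-06) and in U343 RNASeq from 3.10 and 2.90 to 5.55 and 4.69 CPM (adjusted p = 0.0494). In U251 RIPSeq its miR-137 libraries, at 5.28 and 4.52 CPM, also lay above both controls, whose mean was 1.39 CPM (adjusted p = 0.0717), and in U343 RIPSeq 3.58 and 3.39 CPM lay above 2.88 and 2.09 CPM (adjusted p = 0.0707).

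DNAJC16 was higher with miR-137 in all libraries of U251 RNASeq and of both U343 experiments. It had 50.3 and 56.7 CPM in the control libraries and 108 and 107 CPM in the miR-137 libraries in U251 RNASeq (log2 fold change 1.01, SE 0.13, adjusted p = 1.99e-05), 30.5 and 28.1 against 57.6 and 48.2 CPM in U343 RNASeq (log2 fold change 0.85, SE 0.13, adjusted p = 0.0201) and 23.8 and 21.3 against 38.0 and 39.3 CPM in U343 RIPSeq (adjusted p = 0.000316). DNAJC6 (auxilin), which with HSPA8 strips clathrin from vesicles and is known from neurons, rose in U343. Its levels were 10.3 and 8.15 CPM in the control libraries and 22.6 and 20.3 CPM in the miR-137 libraries in RNASeq (log2 fold change 1.22, SE 0.17, adjusted p = 0.0167) and 6.96 and 8.16 CPM in the control libraries and 16.8 and 17.3 CPM in the miR-137 libraries in RIPSeq (log2 fold change 1.17, SE 0.12, adjusted p = 0.000128). In U251 RNASeq its groups overlapped, with 22.1 and 20.0 against 24.0 and 20.9 CPM. The summed neuronal markers were also higher with miR-137 in U343, with 26.5 and 39.3 against 4.94 and 7.85 CPM in RIPSeq (2 of 3 tested were called higher in RNASeq). In U251 RNASeq, where DNAJB2 also rose, their sum was lower with miR-137, at 37.9 and 44.7 against 50.2 and 51.3 CPM. The part of the neuronal markers in the rises of DNAJB2 and DNAJC6 was not tested. DNAJC15, a J protein of the mitochondrial inner membrane, was low throughout and was called in U343 RIPSeq, at 0.709 and 0.934 CPM in the control libraries and 2.51 and 2.32 CPM in the miR-137 libraries (log2 fold change 1.56, SE 0.22, adjusted p = 0.000709).

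The other called members are given by their log2 fold changes. In U251 RNASeq the J proteins DNAJC10, DNAJC21, DNAJC1, DNAJC8, DNAJC13, DNAJC24, DNAJA2 and DNAJC22 and the galectin-like gene HSPC159 were lower, between -0.89 and -0.45. Higher there were HSPA13, DNAJC5, DNAJB9, DNAJB5, DNAJC18 and DNAJC30, between 0.37 and 0.90, and the pseudogene HSP90AB4P, which had 20 control reads and 42 with miR-137. In U343 RNASeq DNAJB11 was lower, at -0.51. In U343 RIPSeq HSPA4L, an HSP110 relative, was at -0.82 and DNAJC10, a disulfide reductase of the endoplasmic reticulum, at -0.79. DNAJC21, DNAJB11, DNAJC19, DNAJC18, DNAJC25, DNAJC25-GNG10, DNAJC27, HSPA12A, DNAJC4, DNAJC2, DNAJC5, DNAJC13 and DNAJC8 and the pseudogene HSP90B3P were called lower there too, with DNAJC5, at -0.24, among the smallest changes. DNAJC14, DNAJC30, DNAJC7 and the pseudogene HSPA7 were called higher, at 0.25, 0.52, 0.60 and 0.94; DNAJC7 overlaps CNP by 1316 bases in the gene models.

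U251 RNASeq, U343 RNASeq and U343 RIPSeq share no libraries. HSPD1, HSPA9, HSP90B1 and DNAJC9 were called lower in all 3, and HSPB1, DNAJB2 and DNAJC16 higher in all 3. The 2 U343 experiments were of the same line, and their calls largely coincided over all genes. Of all genes lower in U343 RNASeq, 92% were also lower in U343 RIPSeq, and of those higher 85.8% were also higher. Among the members these shares were 88.9% and 80%. The share of all genes called alike in all 3 was not counted. The members called lower in U251 RNASeq and in U343 RNASeq had 4 in common, 25% of the U251 list and 44.4% of the U343 list, and those called higher also had 4 in common, 26.7% and 80%. Over all genes the shares were 25.8% and 55.3% for those lower and 12.3% and 36.8% for those higher. No member was called in opposite directions in the RNASeq of the 2 lines. Over all genes this was also uncommon: 205 were lower in U251 and higher in U343, 5.42% of those lower in U251. The reverse held for 153, which were 4.08% of those higher in U251. HSP90AA1, DNAJC5, the cysteine string protein of secretory vesicles, and DNAJC18 were called higher in U251 RNASeq and lower in U343 RIPSeq. They were 20% of the members higher in U251 RNASeq, and over all genes the share was 10.1%. No member was lower in U251 RNASeq and higher in U343 RIPSeq, where 12% of all genes lower in U251 RNASeq were.

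The response itself differed between the lines for 21 of 73 members in RNASeq. The interaction of transfection and cell line was called lower (a log2 change that is lower in U343 than in U251) for 15 members, where 12.7% of all genes were, and higher for 6, where 12.5% were. DNAJA3, a mitochondrial J protein, had the smallest p: it rose in U251, from 69.6 and 62.8 to 110.0 and 123 CPM, and in U343 it had 161 and 163 CPM in the control libraries and 132 and 128 CPM in the miR-137 libraries (log2 difference -1.14, SE 0.16, adjusted p = 0.00267). The fall of DNAJC3 was larger in U251 by 1.14 on the log2 scale (SE 0.16, adjusted p = 0.00285). DNAJB6 fell in U251 and was not called in U343, and its change differed by 1.31 (SE 0.21, adjusted p = 0.00415). HSP90AA1 differed by -0.86 (adjusted p = 0.0109), HSPA8 by 0.65 (adjusted p = 0.0252) and DNAJB1 by -0.90 (adjusted p = 0.006). DNAJC9, lower in both lines, was lower by more in U343 (log2 difference -0.68, adjusted p = 0.0226). Without U343 RNASeq control replicate 1 the counts were 3 and 5, and without its control replicate 2 they were 5 and 2; without U343 RNASeq miR137 replicate 1 they were 18 and 10. Without any 1 of the U251 RNASeq libraries they were 4 to 8 lower and 4 or 5 higher. In RIPSeq 1 of 71 members was called, HSP90AA1 (log2 difference -1.14, SE 0.20, adjusted p = 0.0328), against 1.22% of genes lower and 2.06% higher. That call was lost without either control library or either miR-137 library of U343 and without either miR-137 library of U251, and without U251 RIPSeq control replicate 1 or replicate 2 there were 19 and 30 lower and 8 and 15 higher.

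**Figure D3:**
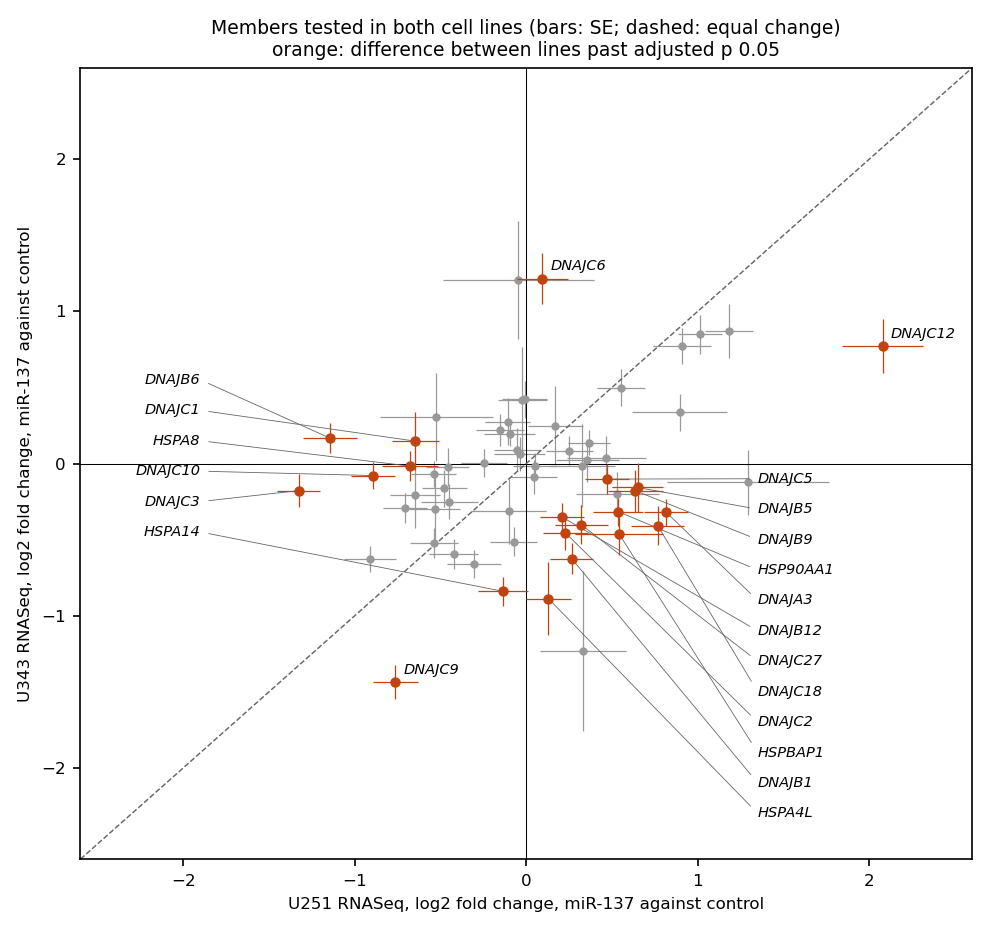
log2 fold change of miR-137 against control in U251 RNASeq (x axis) and U343 RNASeq (y axis) for the 60 members tested in both, with SE bars. The 21 members in orange differ between lines at an adjusted p under 0.05: DNAJB6 and DNAJC3 are far to the left of the dashed line of equal change, and DNAJA3 and HSP90AA1 are right of 0 in U251 and below 0 in U343.

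The interaction of transfection and assay asks whether PABP-bound RNA responded otherwise than total RNA. In U251 no member of 62 was called by edgeR in either direction (0.0281% of all genes lower, 0.106% higher), 8 had an unadjusted p under 0.05, and DESeq2 called DNAJB2 lower. In U343 none of 74 was called (0% of all genes lower, 0.00649% higher), 10 had an unadjusted p under 0.05, and DESeq2 called DNAJC10 lower. Single libraries decided both counts: in U251 they were 3 lower and 9 higher without RIPSeq control replicate 1 and 14 and 28 without its replicate 2, and in U343 they were 4 and 5 without RNASeq miR137 replicate 2.

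The study's own rule, a Fisher's exact test for every pairing of control with miR-137 libraries in which all 4 had to reach an adjusted p below 0.001 at odds above 2, passed few chaperones. Lower by this rule were DNAJC3 in U251 RNASeq (1 of 77 members, against 2.21% of all genes) and DNAJC9 in U343 RNASeq (1 of 79, against 2.88%). No member was lower in U251 RIPSeq (1.49% of all genes) or in U343 RIPSeq (3.4%). The mirrored rule for rises passed DNAJB2, DNAJC16 and DNAJC12 in U251 RNASeq (6.14% of all genes), DNAJC12 in U251 RIPSeq (3.47%), none in U343 RNASeq (1.51%), and DNAJC15, HSPA2 and HSPB3 in U343 RIPSeq (4.83%). At an odds ratio over 1.5, 9 members were lower in U343 RIPSeq and 4 in U343 RNASeq. At the study's odds ratio, single libraries moved these counts. In U251 RNASeq 8 members were higher without control replicate 1 and 6 without miR137 replicate 1, and 2 were lower without miR137 replicate 2. In U251 RIPSeq 15 were higher and 2 lower without control replicate 2, and 2 were higher without control replicate 1 or without miR137 replicate 2. In U343 RNASeq 2 were lower without miR137 replicate 1, and 2 were higher without control replicate 1 or without miR137 replicate 2. In U343 RIPSeq 5 were higher without miR137 replicate 1, and 2 were lower without miR137 replicate 2.

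In the controls, the ratio of PABP-bound to total RNA varied among the chaperones. In U343, 13 of 71 members were called lower in RIPSeq than in RNASeq (24.2% of all genes) and 20 higher (24.4% of all genes). HSPB1 had the highest ratio of the called members, with 204 and 201 CPM in RNASeq and 434 and 449.6 CPM in RIPSeq (log2 fold change 1.12, SE 0.07, adjusted p = 4.52e-05). DNAJC19, a subunit of the mitochondrial import motor, had 29.5 and 32.6 CPM in RNASeq and 59.1 and 56.4 CPM in RIPSeq (log2 fold change 0.89, SE 0.08, adjusted p = 0.000174). DNAJB11 (ERDJ3), a luminal J protein of the endoplasmic reticulum, had 130.0 and 130.3 CPM in RNASeq and 232 and 207 CPM in RIPSeq (log2 fold change 0.75, SE 0.08, adjusted p = 0.000331). Among members with at least 50 reads the lowest was DNAJC2, the ribosome-associated partner of HSPA14, with 65.4 and 65.1 CPM in RNASeq and 35.7 and 31.7 CPM in RIPSeq (log2 fold change -0.95, SE 0.08, adjusted p = 0.00014). DNAJC2 overlaps PMPCB by 2213 bases in the gene models, so its reads may be shared. DNAJC21, which serves maturation of the large ribosomal subunit, had 63.7 and 65.8 CPM in RNASeq and 38.6 and 36.0 CPM in RIPSeq (log2 fold change -0.79, SE 0.08, adjusted p = 0.000199), and HSP90AA1 had 751 and 684 CPM in RNASeq against 435 and 413 CPM (log2 fold change -0.76, SE 0.08, adjusted p = 0.000371). For these 6 genes the assays did not overlap. Without U343 RNASeq control replicate 1, or without U343 RIPSeq control replicate 2, 7 members were called lower, and in the joint fit of 8 libraries 8 were.

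**Figure D4:**
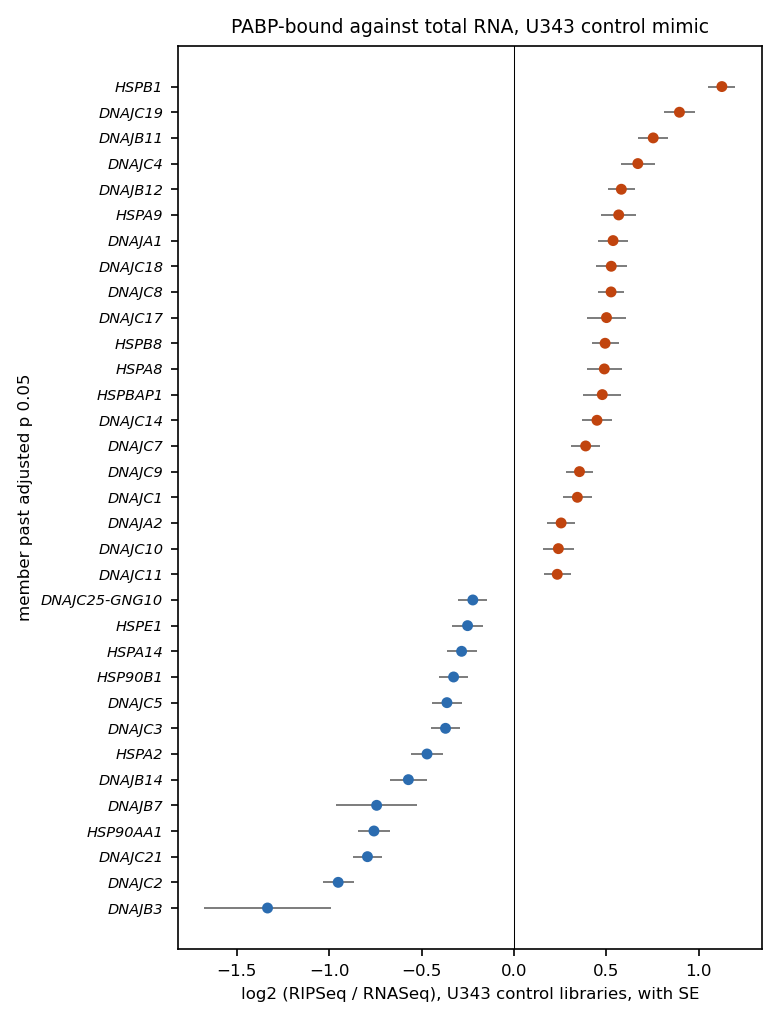
log2 ratio of RIPSeq to RNASeq level, with its SE, for the 33 members past an adjusted p of 0.05 in the U343 control libraries (2 per assay), in order of the ratio. The 13 in blue are lower in PABP-bound RNA, with DNAJB3 at -1.33 and DNAJC2 at -0.95, and the 20 in orange are higher, up to HSPB1 at 1.12.

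In the U251 controls, whose RIPSeq libraries stood apart, 2 of 60 members were called lower in RIPSeq (6.14% of all genes) and 1 higher (7.87%). HSPD1 was at 318 and 372 CPM in RNASeq and 92.6 and 148 CPM in RIPSeq (log2 fold change -1.52, SE 0.37, adjusted p = 0.0441). The pseudogene HSP90AB2P was at 11.1 and 11.3 CPM in RNASeq and 3.15 and 5.16 CPM in RIPSeq (log2 fold change -1.43, SE 0.36, adjusted p = 0.0467). DNAJC4 was at 2.70 and 2.88 CPM in RNASeq and 11.1 and 5.81 CPM in RIPSeq (log2 fold change 1.59, SE 0.41, adjusted p = 0.0499804). The groups did not overlap for these 3 genes. Without either RNASeq control no member was called, without RIPSeq control replicate 1 there were 16 lower and 13 higher, and without its replicate 2 there were 29 and 19. The joint fit of 8 libraries called 13 lower and 9 higher.

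U343 and U251 controls differed in most chaperones, as in most genes. In RNASeq 19 of 68 members were lower in U343 (39.9% of all genes) and 37 were higher (44.9% of all genes), with a median log2 difference of 0.49 against 0.10 over all genes; it was also 0.49 with the 3 genes at 0 reads in U251 put at their bounds. Cell line, cDNA synthesis and the making of the tables cannot be told apart here: 362 genes had at most 5 reads in the U251 RNASeq controls and over 200 in the U343 controls, and DNAJC25-GNG10, HSP90B3P and HSPC072 were among them. By the rule for named genes, those lower in U343 were DNAJB4, HSPB11 and DNAJB7. DNAJB4, a J protein of the DNAJB1 type, had 109 and 116 CPM in U251 and 17.3 and 15.8 CPM in U343 (log2 fold change -2.76, SE 0.10, adjusted p = 2.71e-08). HSPB11 had 41.6 and 49.2 CPM in U251 and 16.9 and 16.3 CPM in U343 (log2 fold change -1.45, SE 0.12, adjusted p = 3.01e-06), and DNAJB7 had 4.63 and 5.67 CPM in U251 and 1.56 and 1.69 CPM in U343 (log2 fold change -1.67, SE 0.21, adjusted p = 7.48e-05). DNAJB7 overlaps XPNPEP3 by 2577 bases in the gene models, so its reads may belong to that gene. Higher in U343, by the rule for named genes, were a read-through gene and 2 pseudogenes: DNAJC25-GNG10 had 0 and 8904 reads over the 2 libraries of a line, at least 1173-fold higher against a floor of 3 counts per group, HSPA7 had 0 and 162 reads, at least 21.3-fold higher, and HSP90B3P had 1 and 397 reads (ratio 157, interval 28.0 to 6214). HSPA6, named after its values were seen, had 11 reads in U251 and 1724 in U343 (ratio 62.0, interval 34.5 to 124). Among the 43 tested members with no pseudogene found by symbol, overlapping gene or read-through, 21 were higher in U343. The match by symbol did not tie the pseudogenes HSP90AB2P, HSP90AB4P, HSP90B3P and HSPA7 to a parent gene. HSP90AA1, HSP90B1 and HSPA6, all called higher in U343, therefore stayed in this set, and their reads may be shared too.

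Partners of the chaperones outside the rule were counted in the same fits, in which 29% of all genes were called lower and 28.7% higher in U251 RNASeq, 11.7% and 8.31% in U343 RNASeq, and 27.8% and 28.5% in U343 RIPSeq. Many of the counts that follow lie near these shares. Of 13 HSP90 co-chaperones, 6 were called lower and 3 higher in U251 RNASeq, 4 lower and none higher in U343 RNASeq, and 6 lower and 4 higher in U343 RIPSeq. The immunophilins PPID, FKBP4 and FKBP5 and the zinc protein CHORDC1 were lower in all 3, and PPID had log2 fold changes of -0.90, -0.84 and -0.73. Of 15 HSP70 co-chaperones, 6 were lower and 4 higher in U251 RNASeq, 1 was lower in U343 RNASeq, and 6 were lower and 2 higher in U343 RIPSeq. BAG2, which blocks the ubiquitin ligase STUB1, was lower in all 3, with log2 fold changes of -0.90, -1.37 and -0.73. Of the subunits of the cytosolic chaperonin TRiC, 5 of 7 tested were lower in U251 RNASeq (median -0.81, all genes 0.02), and 2 of 9 were lower in each U343 experiment, TCP1 and CCT6A. Of 5 tested prefoldin subunits, which pass actin and tubulin to TRiC, 1 was lower and 1 higher in U251 RNASeq, none was called in U343 RNASeq and 3 were lower in U343 RIPSeq. Of 4 genes of the heat shock factors and their regulator (HSF1, HSF2, HSF4 and HSBP1), 1 was lower and 1 higher in U251 RNASeq, none lower and 1 higher in U343 RNASeq, and 1 lower and 3 higher in U343 RIPSeq. HSF4 was higher in all 3 experiments, by 1.15, 1.26 and 1.70 on the log2 scale, the first on a mean of 8 control and 12.5 miR-137 reads per library, and HSF1 was called in U343 RIPSeq alone (0.47). Other stress chaperones outside the rule (TRAP1, CRYAA, CRYAB, SERPINH1 and CLPB) had 2 lower and 1 higher of 3 tested in U251 RNASeq, none called of 4 in U343 RNASeq, and 2 lower and 1 higher of 4 in U343 RIPSeq. Of the textbook heat shock targets among the members, 2 of 11 tested were lower and 2 higher in U251 RNASeq, 3 of 12 lower and 1 higher in U343 RNASeq, and 5 of 12 lower and 3 higher in U343 RIPSeq.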

How the data were processed

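Per the study's methods reads were mapped with RMAP (hg18), and the authors deposited, for each library, a table of raw read counts per gene on 1 merged RefSeq transcript model; strand and the treatment of reads with several matches are not given in the sources used here. The column used was the deposited count. Libraries were grouped by their labels (cell line, assay and transfection, 2 each). Counts were tested with edgeR 4.0.16 (R 4.3.3): TMM factors, filterByExpr, quasi-likelihood F test, Benjamini-Hochberg adjustment over all genes, threshold 0.05. Levels are CPM, counts scaled to library size, with TMM factors within each comparison; the SE is the absolute log2 fold change divided by the square root of F. Few reads were given exact 95% intervals, and a fold against 0 reads used a floor of 3 counts per group. DESeq2 1.42.0, upper-quartile factors, other count filters, joint fits, a replicate block and leaving out libraries were tried. Promoters were read from RefSeq. The models were tested on simulated data. The members and lists were chosen with earlier results of these data known. Named genes were 11 main chaperones in every experiment, the 3 largest falls and rises per comparison among called members whose higher group averaged 50 reads or more, and the up to 3 lowest p per interaction; other members named with values were chosen after their values were seen. Only counting error enters the intervals, since reads carried no molecular identifiers.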

Additional observations from a re-analysis of the deposited data

Results flagged for a closer look

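The response to miR-137 in RNASeq differed between U343 and U251, by edgeR's interaction test, for 21 members, given here as the log2 fold change in U343 minus that in U251. It was lower in U343 for DNAJC12 (-1.32), DNAJC18 (-1.18), DNAJA3 (-1.14), HSPA4L (-1.03), HSPBAP1 (-1.01), DNAJB1 (-0.90), HSP90AA1 (-0.86), DNAJB9 (-0.82), DNAJB5 (-0.82), DNAJC27 (-0.73), HSPA14 (-0.71), DNAJC2 (-0.69), DNAJC9 (-0.68), DNAJC5 (-0.58) and DNAJB12 (-0.57). It was higher in U343 for DNAJB6 (1.31), DNAJC3 (1.14), DNAJC6 (1.11), DNAJC10 (0.81), DNAJC1 (0.79) and HSPA8 (0.65). DNAJA3, DNAJB1 and DNAJC18, as well as DNAJB6 and DNAJC3, were also called when any 1 of the 4 RNASeq control libraries was left out. In RIPSeq the response of HSP90AA1 differed by -1.14. The libraries of the lines were made by different cDNA synthesis procedures, so that line and procedure cannot be told apart.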

How the results depend on the processing

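In U251 RNASeq, upper-quartile factors gave 14 lower and 24 higher, with the median of all genes at 0.16, and a joint fit of the line's 8 libraries gave 5 and 6. U251 RIPSeq had 1 member higher with DESeq2 (DNAJC12) and 6 in the joint fit. U343 RNASeq had 15 lower with DESeq2 and 21 lower and 10 higher in the joint fit. For RIPSeq against RNASeq in U251, DESeq2 gave 5 lower and 4 higher, upper-quartile factors 0 higher, no count filter 0 and 0, a filter at a mean of 50 reads 1 and 0, and the joint fit 13 and 9; in U343 the joint fit gave 8 lower. The interaction with assay had 1 lower with DESeq2 in each line. The interaction with cell line in RIPSeq had 8 lower and 1 higher with DESeq2, and 0 lower with upper-quartile factors. Of U343 against U251, 21 were higher without the members flagged by symbol or position as of uncertain counting, an alternative chosen after seeing the data. Upper-quartile factors put the median of all genes there at 0.21. For the Fisher rule, an odds ratio over 1.5 gave 2 lower and 12 higher in U251 RNASeq, 9 higher in U251 RIPSeq, 4 and 1 in U343 RNASeq and 9 and 10 in U343 RIPSeq; an adjusted p under 0.05 gave 2 lower in U343 RNASeq; and 3 of 4 pairs gave 6 higher in U251 RNASeq, 2 in U251 RIPSeq and 2 in U343 RNASeq. The causes were not tested.

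Deviations of same-numbered libraries from their group means had r from -0.259 (RIPSeq against RNASeq, U343 controls) to 0.422 (U343 RIPSeq), across genes. The labels tie no number to a shared culture or batch, and with 2 libraries a group the numbers were not taken as pairs. With the replicate number as a block, the counts lower and higher were 17 and 14 in U251 RNASeq, 0 and 2 in U251 RIPSeq, 9 and 6 in U343 RNASeq, 29 and 17 in U343 RIPSeq, 9 and 5 for RIPSeq against RNASeq in U251, 12 and 18 in U343, 19 and 37 between lines, and 14 and 6 (RNASeq) and 0 and 0 (RIPSeq) for the interaction with line. The crossed pairing in U343, added after seeing the data, gave 17 and 21.

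Leaving out 1 library gave, for lower and higher, 11 to 16 and 11 to 15 in U251 RNASeq, 0 to 18 and 0 to 34 in U251 RIPSeq, 0 to 19 and 0 to 13 in U343 RNASeq, and 18 to 20 and 13 to 14 in U343 RIPSeq. For RIPSeq against RNASeq it gave 0 to 29 and 0 to 19 in U251, and 7 to 12 and 15 to 19 in U343; between lines 17 to 20 and 37. The interaction with assay had 0 to 14 and 0 to 28 in U251, 0 to 4 and 0 to 5 in U343; that with line 3 to 18 and 2 to 10 in RNASeq, 0 to 30 and 0 to 15 in RIPSeq. By the Fisher rule it gave 1 to 2 and 3 to 8 in U251 RNASeq, 0 to 2 and 1 to 15 in U251 RIPSeq, 1 to 2 and 0 to 2 in U343 RNASeq, and 0 to 2 and 3 to 5 in U343 RIPSeq. A group left with 1 library is assumed to vary like the others. In U251 RIPSeq, where none of them was called, the log2 fold change ranged over these fits from -0.35 to 0.55 for HSPA9, from -0.14 to 0.70 for HSPD1 (both lowest without control replicate 1) and from -0.23 to 1.04 for HSPB1 (lowest without control replicate 2). Without HSPA8, HSP90AB1 and HSPA9, members held 4212 to 7042 CPM of a library. The alternative that sums HSPA1A and HSPA1B was not run, since the rule did not find these genes in the count tables used here.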
